A study of Mus musculus with 53 samples.

Results

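The measurements described here are those of 10 genes in mouse cerebellum that are known as imprinted, that is, as expressed mainly from the copy of a single parent. They are Dlk1, Rtl1, Meg3, Rian and Mirg of the Dlk1-Meg3 locus, H19 and Igf2 of the H19-Igf2 locus, and Igf2r, Grb10 and Peg3, each from a locus of its own. They are a fixed list of gene symbols with no threshold on a measured value, put together with earlier results of these data known. All 10 were found among the 55573 genes of the P2 tables and among the 57010 genes of the P7 matrices, with 1 row each. The study removed Insm1, a zinc finger repressor, or Tead1 and Tead2 together, DNA-binding partners of YAP, by means of Atoh1Cre. This recombinase is driven by a gene of the rhombic lip, from which cerebellar granule cells arise.

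At postnatal day 2 (P2), RNA of the whole cerebellum was sequenced in bulk from 4 Insm1fl/fl controls, 4 Atoh1Cre; Insm1fl/fl mutants, 3 controls with floxed Tead1 and Tead2 and 4 mutants that carried Atoh1Cre on top of both floxed genes. The labels place the Insm1 libraries in one batch and the Tead1/2 libraries in another, so line and batch cannot be told apart at P2. The sex assigned to the P2 libraries was female in all 4 Insm1 controls and Insm1 mutants 1 and 2, and male in Insm1 mutants 3 and 4. It was male in Tead1/2 controls 1 and 3 and Tead1/2 mutants 1 to 3, and female in Tead1/2 control 2 and the library labelled mutant 4. A fit with a sex term was among the alternatives. At postnatal day 7 (P7), single cells of 1 cerebellum per animal were sequenced by split-pool barcoding, with 2 controls and 3 mutants for each line. Replicate 1 of each P7 group holds all lobules, and replicates 2 and 3 lack lobules IX and X. Controls carry the floxed alleles without Cre at both ages, and a group with Cre alone was not analysed here. The effect of Cre itself therefore cannot be told apart from that of the deletion.

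The P2 libraries hold 28066643 to 64518751 expected counts, and the P7 libraries hold 90269989 to 211707202 transcript molecules (UMIs) in 4779 to 10710 barcodes that passed the cell filters. No cell barcode was found in more than 1 library. All 10 granule progenitor markers and all 8 Purkinje markers were measured in every P2 library, with sums of 1330 to 1891 and 1257 to 1726 CPM, that is, counts scaled to the size of the library. Insm1 stood at 30.8 to 71.9 CPM in the P2 Insm1 controls and at 8.48 to 16.2 CPM in the Insm1 mutants. Tead1 overlapped between Tead1/2 controls and mutants at gene level, which does not measure the deleted exons. Tead2 was 23.3, 25.6 and 22.3 CPM in these controls, 19.4, 19.4 and 17.3 CPM in Tead1/2 mutants 1 to 3 and 25.7 CPM in the library labelled mutant 4. Without that library Tead2 fell (log2 change -0.35, edgeR FDR 0.0417) and Insm1 rose (log2 change 0.58, edgeR FDR 0.00235), and with it neither was called. At P7 Insm1 stood at 58.2 and 56.3 CPM in its controls and at 14.5, 5.73 and 7.67 CPM in its mutants. Tead2 fell there from 30.1 and 31.9 CPM to 9.15, 7.65 and 7.26 CPM in the Tead1/2 mutants, while the gene-level count of Tead1 was higher in them (1125 to 1312 CPM) than in their controls (630 and 631 CPM). One P2 library stood apart. The library labelled Tead1/2 mutant 4 had a summed level of 15 skeletal muscle markers of 19.01 CPM. That sum was 182, 229 and 241 CPM in the other Tead1/2 mutants and 21.96 to 24.6 CPM in the Tead1/2 controls. The Tead1/2 comparison at P2 was made with and without that library. Since it was set apart by values measured in these data, an FDR without it is no independent test.

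By way of background, both multi-gene loci are controlled by differential methylation of DNA between the parental copies. Counts here do not tell the parental copies apart, so maternal and paternal name only the known imprint of a gene. At the Dlk1-Meg3 locus the paternal copy makes Dlk1 and Rtl1, and the maternal copy makes the noncoding RNAs Meg3, Rian and Mirg together with a large cluster of microRNAs. At the H19-Igf2 locus the maternal copy makes the noncoding RNA H19 and the paternal copy makes the growth factor Igf2, and enhancers downstream of H19 serve both genes. Paternally expressed genes such as Igf2, Dlk1 and Peg3 tend to favour growth, and maternally expressed ones such as H19, Igf2r and, outside neurons, Grb10 tend to restrain it. H19, Igf2 and the Meg3 cluster are abundant in fetal and regenerating skeletal muscle, and H19 falls to low levels in most tissues after birth.

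In the RefSeq annotation of GRCm38.p6 the Dlk1-Meg3 locus runs along chromosome 12 in the order Dlk1 (chr12:109452485-109463336), Meg3 (chr12:109540996-109571729), Rtl1 (chr12:109564900-109604418), Rian (chr12:109603945-109661716) and Mirg (chr12:109734981-109749458). The annotated span of Rtl1, a retrotransposon-derived coding gene, overlaps those of Meg3 and Rian and holds microRNAs on the opposite strand. Whether the counting used strand is not given in the sources used here, so counts of Rtl1 could hold reads of its neighbours. H19 (chr7:142575530-142578146) and Igf2 (chr7:142650768-142666816) lie on chromosome 7, where Igf2 overlaps its antisense RNA Igf2os. Peg3 (chr7:6703892-6730462) lies far from both on the same chromosome, Grb10 (chr11:11930499-12037428) is on chromosome 11, and Igf2r (chr17:12682406-12769706), which overlaps its antisense RNA Airn, is on chromosome 17. Rian, Mirg, Meg3 and H19 are noncoding, and the others encode proteins.

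Several members are host RNAs of microRNAs. Mature microRNAs themselves were not measured, so whether they change with the host RNA was not tested. RefSeq places 2 mature microRNAs in H19, 2 in Igf2, 3 in Meg3, 28 in the span of Rtl1, 6 in Rian, 19 in Mirg and 55 between Rian and Mirg. Of the 111 on chromosome 12, 9 seeds are shared by more than 1 name. The sequences below are those of H19 and Igf2, the first pair of Meg3, 3 from the strand opposite Rtl1, and 3 sets from Rian, Mirg and the stretch between them that share a seed. Capitals mark the seed, bases 2 to 8.
miR-675-5p, H19, chr7:142577112-142577133, minus strand: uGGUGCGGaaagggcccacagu
miR-675-3p, H19, chr7:142577078-142577099, minus strand: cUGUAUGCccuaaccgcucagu
miR-483-5p, Igf2, chr7:142654968-142654989, minus strand: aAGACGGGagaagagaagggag
miR-483-3p, Igf2, chr7:142654932-142654952, minus strand: uCACUCCUccccucccgucuu
miR-770-5p, Meg3, chr12:109563710-109563731, plus strand: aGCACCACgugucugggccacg
miR-770-3p, Meg3, chr12:109563744-109563765, plus strand: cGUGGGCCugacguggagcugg
miR-433-3p, span of Rtl1, chr12:109591781-109591802, plus strand: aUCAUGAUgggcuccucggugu
miR-127-3p, span of Rtl1, chr12:109592888-109592909, plus strand: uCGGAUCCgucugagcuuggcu
miR-136-5p, span of Rtl1, chr12:109595331-109595352, plus strand: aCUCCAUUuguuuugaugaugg
miR-370-5p, Rian, chr12:109618270-109618289, plus strand: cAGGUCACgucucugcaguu
miR-1193-3p, between Rian and Mirg, chr12:109715750-109715770, plus strand: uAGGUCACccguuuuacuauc
miR-494-5p, between Rian and Mirg, chr12:109715334-109715355, plus strand: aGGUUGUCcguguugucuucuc
miR-410-5p, Mirg, chr12:109743729-109743749, plus strand: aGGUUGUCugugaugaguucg
miR-453, Mirg, chr12:109735669-109735692, plus strand: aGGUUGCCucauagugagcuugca
miR-496a-5p, Mirg, chr12:109739132-109739152, plus strand: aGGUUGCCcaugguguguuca

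Since one of the lines lacks Tead1 and Tead2, the RefSeq windows from 250 bases before to 50 after each gene start were searched on both strands for GGAATG, the core of the M-CAT element that TEAD proteins bind, or its reverse complement CATTCC. Of 32851 such windows in the genome, 4817 (14.7%) hold it. Of the 13 windows listed for 8 members, 5 do, namely 3 of the 4 windows of Igf2, that of Rian and that of Peg3. No match was found in the windows of Dlk1, Meg3, Mirg, Igf2r and Grb10. H19 and Rtl1 had no listed window and were not searched. A match is a description of the letters, not of a binding site. The first line is the whole window at the Igf2 start with 2 matches, 218 and 112 bases before the start, and the other lines are the matches with 12 bases on each side. All are printed on the strand of the gene, and capitals mark the matches.
Igf2, chr7:142661222-142661521, minus strand: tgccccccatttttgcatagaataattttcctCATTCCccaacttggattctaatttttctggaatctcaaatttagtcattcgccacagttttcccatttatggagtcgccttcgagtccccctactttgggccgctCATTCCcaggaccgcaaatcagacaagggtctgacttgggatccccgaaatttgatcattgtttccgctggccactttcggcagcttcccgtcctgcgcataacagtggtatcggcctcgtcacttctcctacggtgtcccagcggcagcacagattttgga
Igf2, chr7:142658967-142658996, minus strand, 180 bases before the start: gggtgacgcctcCATTCCtcccccctcaac
Igf2, chr7:142657642-142657671, minus strand, 163 bases before the start: gtgctttgctaaGGAATGgtccaaggctag
Rian, chr12:109603830-109603859, plus strand, 103 bases before the start: aaaaaggtctgtGGAATGttctcttacctt
Peg3, chr7:6730486-6730515, minus strand, 84 bases before the start: ggcccaaagcggGGAATGgggtcttggatt

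The first comparison asked whether the members already differed between mutants and controls at P2. H19 had the largest fitted change of the 9 members tested in either line, 2.26-fold in Insm1 mutants and 2.82-fold in Tead1/2 mutants, but it did not pass the test in either line with all libraries. Of the RNAs of the Dlk1-Meg3 locus, Rian and Mirg had higher means in Insm1 mutants, and Meg3, Rian and Mirg had lower means in Tead1/2 mutants, with no difference between the lines called. A gene is called here when its adjusted p (Benjamini-Hochberg, FDR, edgeR quasi-likelihood test over all genes) is under 0.05. By that rule 0 of 9 members were called in the Insm1 line, where 0.689% of 19582 tested genes were called. Likewise 0 of 9 were called in the Tead1/2 line, where the share over all 20247 genes was 0.0%. At an unadjusted p under 0.05 the members numbered 5 of 9 in each line, beside 1763 of the 19582 genes for Insm1 and 4052 of the 20247 for Tead1/2. DESeq2 called 2 members for Insm1 (1.35% of genes) and 3 for Tead1/2 (6.28%). The median log2 change of the 9 members was 0.23 for Insm1 and 0.13 for Tead1/2. That of all tested genes was 0.01 and -0.01. The groups did not overlap for 2 of 9 members in the Insm1 line and 3 of 9 in the Tead1/2 line. The share of all genes that separate in this way at P2 was not counted, so lack of overlap below is a description.

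The 4 Insm1 controls had H19 levels of 41.28, 22.4, 13.5 and 16.9 CPM, and the 4 Insm1 mutants had 75.2, 53.6, 41.25 and 43.1 CPM. The mutants were high and the controls low, except that control 1 reached the level of the lowest mutant. The fitted log2 change was 1.18 (SE 0.32, edgeR FDR 0.22). Control 1 also had the highest sum of the 9 fibroblast markers, 264 CPM against 78.3 to 177 CPM in the other Insm1 libraries, and its part in this result was not tested. Without control 1 H19 was called (log2 change 1.60, edgeR FDR 0.0315). Control 1 had the highest H19 of the controls, so leaving it out is tied to the result and gives no independent test. The 15 muscle markers summed to 19.2 to 45.7 CPM in the Insm1 controls and to 173 to 287 CPM in the Insm1 mutants, and their part in the H19 levels was not tested. Here and in all bulk results, more cells of a type and more RNA per cell cannot be told apart.

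Among the Tead1/2 controls H19 stood at 13.9, 12.7 and 18.7 CPM. Mutants 1 to 3 had 30.7, 69.1 and 51.9 CPM, and the library labelled mutant 4 had 16.6 CPM. The first 3 mutants lay above all controls and the library labelled mutant 4 among the controls, the same split as that of the muscle markers. With all libraries the log2 change was 1.496 (SE 0.39, edgeR FDR 0.107), and without the library labelled mutant 4 it was 1.75 (SE 0.26, edgeR FDR 0.00742), a call. That library was left out for muscle markers that split the libraries as H19 did, so the call is no independent test.

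Igf2, the growth factor that shares enhancers with H19, overlapped between the groups of both lines at P2. Its level was 111, 60.2, 40.8 and 70.7 CPM in the Insm1 controls and 53.1, 99.5, 46.05 and 51.3 CPM in the Insm1 mutants. For Tead1/2 it was 38.3, 42.5 and 49.3 CPM in controls and 34.9, 79.0, 58.6 and, in the library labelled mutant 4, 39.7 CPM. The log2 changes were -0.18 (SE 0.31, edgeR FDR 0.885) for Insm1 and 0.30 (SE 0.24, edgeR FDR 0.512) for Tead1/2. The 9 fibroblast markers, genes of cells that held much Igf2 at P7, summed to 264, 142, 121 and 166 CPM in the Insm1 controls and to 109, 177, 78.3 and 79.1 CPM in the Insm1 mutants, with a median log2 change of -0.61 and 0 of 9 called (edgeR, 3 with an unadjusted p under 0.05). They summed to 128, 131 and 150 CPM in the Tead1/2 controls and to 71.8, 177, 149.7 and 123 CPM in the Tead1/2 mutants. In every group the libraries with the highest and lowest Igf2 were also those with the highest and lowest fibroblast sums. The part of these cells in the level of Igf2 and in its ratio to H19 was not tested. The ratio of Igf2 to H19 within a library, a description without a test, separated the groups in both lines. It ran from 2.69 to 4.18 in the Insm1 controls and from 0.706 to 1.86 in the Insm1 mutants. It ran from 2.63 to 3.33 in the Tead1/2 controls and in the Tead1/2 mutants from 1.13 to 2.39, the highest being that of the library labelled mutant 4.

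Meg3, the long noncoding RNA that leads the maternal transcripts of its locus, stood at 671, 562 and 542 CPM in the Tead1/2 controls and at 391, 378, 401 and 437 CPM in the Tead1/2 mutants. All mutants, the library labelled mutant 4 included, lay below all controls. The log2 change was -0.56 (SE 0.08, edgeR FDR 0.0689) with all libraries and -0.60 (SE 0.08, edgeR FDR 0.00423) without the library labelled mutant 4, so that Meg3 fell only by the second of these fits. The 8 Purkinje markers, genes of the cells with the highest Meg3 among the neurons named at P7, summed to 1454 to 1488 CPM in the Tead1/2 controls and to 1526 to 1726 CPM in the mutants. In the Insm1 line Meg3 was 630, 495, 502 and 708 CPM in controls and 413, 743, 663 and 658 CPM in mutants. These overlap widely, with a log2 change of 0.09 (SE 0.18, edgeR FDR 0.906).

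Rian and Mirg, the noncoding RNAs downstream of Meg3 that host small nucleolar RNAs and microRNAs, differed less. Mirg in the Tead1/2 line was 18.7, 19.4 and 20.8 CPM in controls and 15.7, 15.9, 17.4 and 16.7 CPM in mutants, without overlap (log2 change -0.26, SE 0.06, edgeR FDR 0.101). Rian overlapped there, at 480 to 554 CPM against 456 to 501 CPM (log2 change -0.14, SE 0.06, edgeR FDR 0.247). In the Insm1 line the order was the other way round. Rian was 397, 442, 475 and 454 CPM in controls and 535, 507, 547 and 532 CPM in mutants, without overlap (log2 change 0.26, SE 0.07, edgeR FDR 0.22). Mirg overlapped, at 13.8 to 17.9 CPM against 17.4 to 20.6 CPM (log2 change 0.29, SE 0.10, edgeR FDR 0.367). The ratio of Rian to Meg3 was 0.825 to 0.987 in the Tead1/2 controls and 1.14 to 1.27 in all 4 Tead1/2 mutants, and it overlapped between the Insm1 groups.

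The paternally expressed members of the locus were scarce at P2. Dlk1, a membrane protein of the Notch ligand family that restrains differentiation, lay between 1.06 and 2.27 CPM in all 15 libraries. Its log2 changes were 0.12 (SE 0.25, edgeR FDR 0.909) for Insm1 and 0.13 (SE 0.24, edgeR FDR 0.808) for Tead1/2. Rtl1 had 1, 5, 1 and 2 expected counts in the Insm1 controls, 6, 10, 9 and 11 in the Insm1 mutants, 8, 12 and 7 in the Tead1/2 controls and 6, 9, 4 and 3 in the Tead1/2 mutants, and was too low to be tested within either line.

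Of the members outside both clusters, Grb10, an adaptor protein that damps insulin and IGF receptor signalling, had higher levels without overlap in both lines. With all libraries it was not called in either line. Its level was 167, 156, 148 and 136 CPM in the controls of the Insm1 line and 178, 193, 187 and 185 CPM in the mutants (log2 change 0.29, SE 0.07, edgeR FDR 0.17). The Tead1/2 line had 156, 155.5 and 130 CPM in controls and 207, 189, 224 and, in the library labelled mutant 4, 159 CPM. The latter lay closest to the controls (log2 change 0.41, SE 0.11, edgeR FDR 0.112). Without that library Grb10 rose, with a log2 change of 0.49 (SE 0.09, edgeR FDR 0.0196). Igf2r, the receptor that takes up IGF2 for degradation, and Peg3, a zinc finger protein expressed from the paternal copy, overlapped between groups in both lines, with log2 changes of -0.03 and -0.18 for Igf2r and of 0.23 and 0.15 for Peg3 (edgeR FDR 0.394 to 0.931). Without the library labelled mutant 4, 3 of 9 members were thus called, H19 and Grb10 higher and Meg3 lower, where 3.19% of 20234 genes were called, 1.98% higher and 1.22% lower. The log2 changes of the other members without that library were 0.41 for Igf2, -0.17 for Rian, -0.27 for Mirg, 0.17 for Dlk1, -0.11 for Igf2r and 0.25 for Peg3 (edgeR FDR 0.0763 to 0.747).

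**Figure D1:**
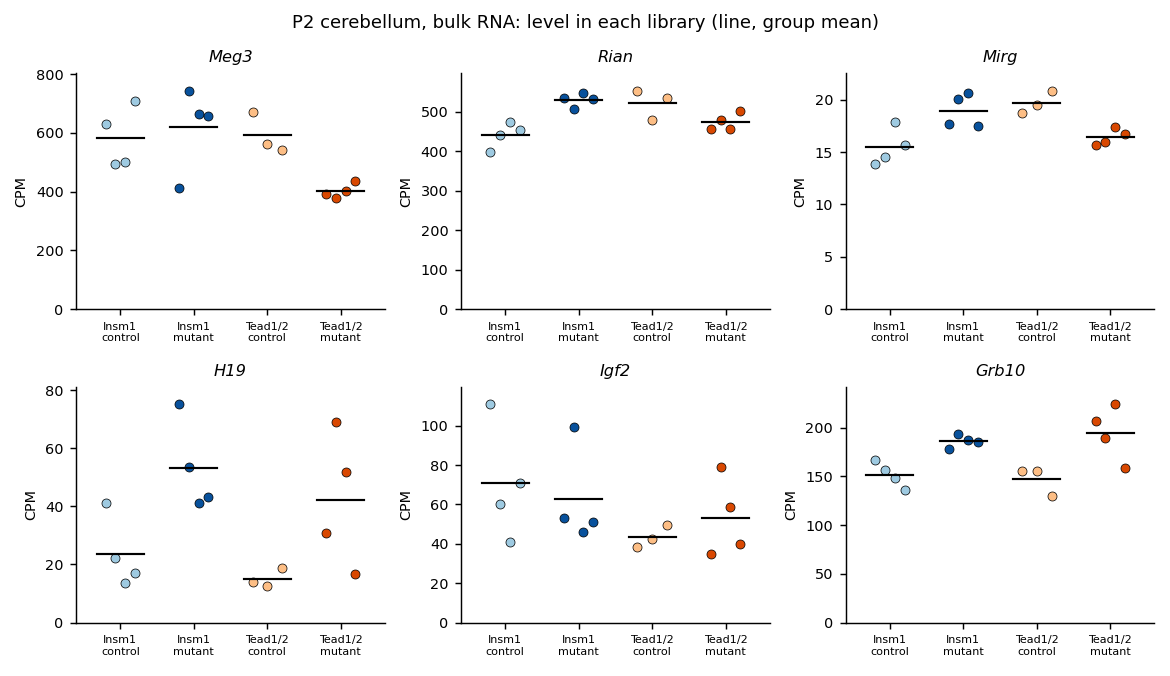
Level of 6 members in each P2 bulk library, in CPM (vertical axis), by group (horizontal axis), with a point for each library and a line at the group mean. H19 lies between 41.3 and 75.2 CPM in the Insm1 mutants, and Meg3 lies between 378 and 437 CPM in the Tead1/2 mutants and between 542 and 671 CPM in the Tead1/2 controls.

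The difference between both mutant effects at P2 was tested in a fit of all 15 libraries, in which 0 of 10 members were called (0.0% of 20837 genes). DESeq2 also called 0 members, and 14 genes in all (0.063%). The lowest unadjusted p-values belonged to members of the Dlk1-Meg3 locus, for which 4 of 5 had one under 0.05, beside 6.89% of all genes. The differences, Insm1 minus Tead1/2 on the log2 scale, were 0.64 for Meg3 (SE 0.22, edgeR FDR 0.613), 0.40 for Rian (SE 0.10, edgeR FDR 0.448), 0.55 for Mirg (SE 0.12, edgeR FDR 0.394) and 3.00 for Rtl1 (SE 0.62, edgeR FDR 0.339), the last resting on the few counts given above. For H19 it was -0.32 (SE 0.56, edgeR FDR 0.958) and for Igf2 -0.48 (SE 0.45, edgeR FDR 0.903), so that no difference between the lines was detectable for either. Without the library labelled Tead1/2 mutant 4 the differences were 0.68 for Meg3, 0.43 for Rian, 0.56 for Mirg, 2.92 for Rtl1, -0.58 for H19 and -0.60 for Igf2, and 0 of 10 were called (edgeR).

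At P7 the comparison was made on UMI sums of each library over all barcodes that passed the cell filters. All 10 members rose in the mutants of both lines. No mutant overlapped a control, but the share of all genes that separate in this way was not counted. Of 35 other imprinted genes tested, 29 in the Insm1 line and 26 in the Tead1/2 line did not overlap either. H19 rose most in these sums, followed by Dlk1, Mirg and Rian, and Igf2r and Peg3 rose least. In the Insm1 line 33.9% of the 24602 tested genes were called, 18.6% higher and 15.4% lower. For Tead1/2 the shares were 48.6%, 25.9% and 22.7%, so calls were common at this age and the sizes tell more than the count. The median log2 change of the members was 3.01 for Insm1 and 4.31 for Tead1/2, beside 0.04 and 0.06 for all genes. The 15 muscle markers summed to 55.1 to 77.0 CPM in the 4 controls, to 5559 to 6528 CPM in the Insm1 mutants and to 12523 to 19900 CPM in the Tead1/2 mutants. Of the 74855 cells left after removal of the highest doublet scores, muscle-like clusters made up at most 0.0498% in a control, 12.1% to 13.4% in an Insm1 mutant and 20.6% to 27.8% in a Tead1/2 mutant. Markers of other cells moved as well. Of 9 fibroblast markers 1 was called higher in Insm1 mutants and 8 in Tead1/2 mutants (edgeR), with sums of 179 to 188 CPM in the 4 controls, 222, 198 and 278 CPM in the Insm1 mutants and 278, 347 and 529.8 CPM in the Tead1/2 mutants. Of 10 granule progenitor markers 8 and 9 were called lower and 1 higher in each line, with sums of 3317 to 3514 CPM in the controls, 1980 to 2171 CPM in the Insm1 mutants and 1597 to 1838 CPM in the Tead1/2 mutants. The part of these cells in the changes of the members was not tested.

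H19 went from 11.3 and 14.7 CPM in the controls of the Insm1 line to 643, 639 and 662 CPM in its mutants, a rise of 49.8-fold (log2 change 5.64, SE 0.20, edgeR FDR 3.55e-08). The Tead1/2 line had 10.7 and 13.6 CPM in controls and 1708, 1790 and 1278 CPM in mutants, a rise of 131-fold (log2 change 7.04, SE 0.22, edgeR FDR 7.92e-09). The mutants of a line lay close together and far from any control. These folds depend on which barcodes are summed. With every deposited barcode, those that failed the cell filters included, the log2 changes of H19 were 4.80 for Insm1 and 5.34 for Tead1/2 (edgeR, called in both lines), and in the Tead1/2 line Dlk1 then had the larger change (5.402). Mirg and Rtl1 of the Tead1/2 line moved by over 1.5 times as well, to log2 changes of 4.93 and 3.43.

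Igf2 rose as well, by a smaller factor than H19 in both lines. It went from 80.8 and 91.8 CPM to 849, 782 and 816 CPM in the Insm1 line (log2 change 3.24, SE 0.14, edgeR FDR 1.33e-07). For Tead1/2 it went from 84.2 and 65.04 CPM to 1734, 1979 and 1522 CPM (log2 change 4.55, SE 0.15, edgeR FDR 1.45e-08). The ratio of Igf2 to H19 was 4.80 to 7.86 in the 4 controls and 1.02 to 1.32 in the 6 mutants, so that the separation seen at P2 was present at P7 as well.

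Of the maternal RNAs of chromosome 12, Meg3 varied most between controls. The Insm1 line had 85.9 and 191 CPM in controls and 561, 711 and 738 CPM in mutants (log2 change 2.27, SE 0.31, edgeR FDR 2.92e-04). Control 2, the higher one, had 1.71% Purkinje-like cells among its kept cells and control 1 had 0.209%, and the part of these cells in the control levels was not tested. Meg3 in the Tead1/2 line went from 62.8 and 66.7 CPM to 1230, 1189 and 836 CPM (log2 change 4.07, SE 0.34, edgeR FDR 5.45e-06).

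Rian and Mirg rose further than Meg3. Rian went from 46.3 and 62.2 CPM to 566, 612 and 632 CPM in the Insm1 line (log2 change 3.48, SE 0.21, edgeR FDR 8.86e-07). For Tead1/2 it went from 37.7 and 38.5 CPM to 1545, 1441 and 974 CPM (log2 change 5.11, SE 0.22, edgeR FDR 6.71e-08). Mirg lay at 3.76 to 6.05 CPM in the 4 controls, at 82.0 to 88.7 CPM in the Insm1 mutants and at 149 to 215 CPM in the Tead1/2 mutants (log2 changes 3.98 and 5.62). Within a library the ratio of Rian to Meg3 was 0.325 to 0.601 in the controls and 0.856 to 1.26 in the mutants, and Mirg came to 3.17% to 5.98% of Meg3 in the controls and to 12.01% to 18.04% in the mutants.

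The paternal members Dlk1 and Rtl1 rose with them. Dlk1 was 0.314 and 0.386 CPM in the Insm1 controls and 8.37, 10.8 and 8.87 CPM in the Insm1 mutants (log2 change 4.74, SE 0.23, edgeR FDR 2.60e-07). It was 0.527 and 0.338 CPM in the Tead1/2 controls and 29.5, 29.4 and 21.3 CPM in the mutants (log2 change 5.92, SE 0.25, edgeR FDR 4.71e-08). Rtl1 lay at 0.697 to 0.974 CPM in the controls, at 5.71 to 6.84 CPM in the Insm1 mutants and at 10.7 to 18.0 CPM in the Tead1/2 mutants, with log2 changes of 2.77 (SE 0.23) and 4.08 (SE 0.24).

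Grb10 went from 69.6 and 72.9 CPM to 402, 408 and 446 CPM in the Insm1 line (log2 change 2.56, SE 0.14, edgeR FDR 4.06e-07) and from 65.2 and 57.95 CPM to 587, 733 and 520 CPM in the Tead1/2 line (log2 change 3.32, SE 0.14, edgeR FDR 5.55e-08). Igf2r rose from a mean of 56.6 to 95.7 CPM and from 64.98 to 147 CPM (log2 changes 0.76 and 1.18). Peg3 rose from 213 to 338 CPM and from 194 to 412 CPM (log2 changes 0.67 and 1.09). These were the smallest rises of the set in both lines.

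**Figure D2:**
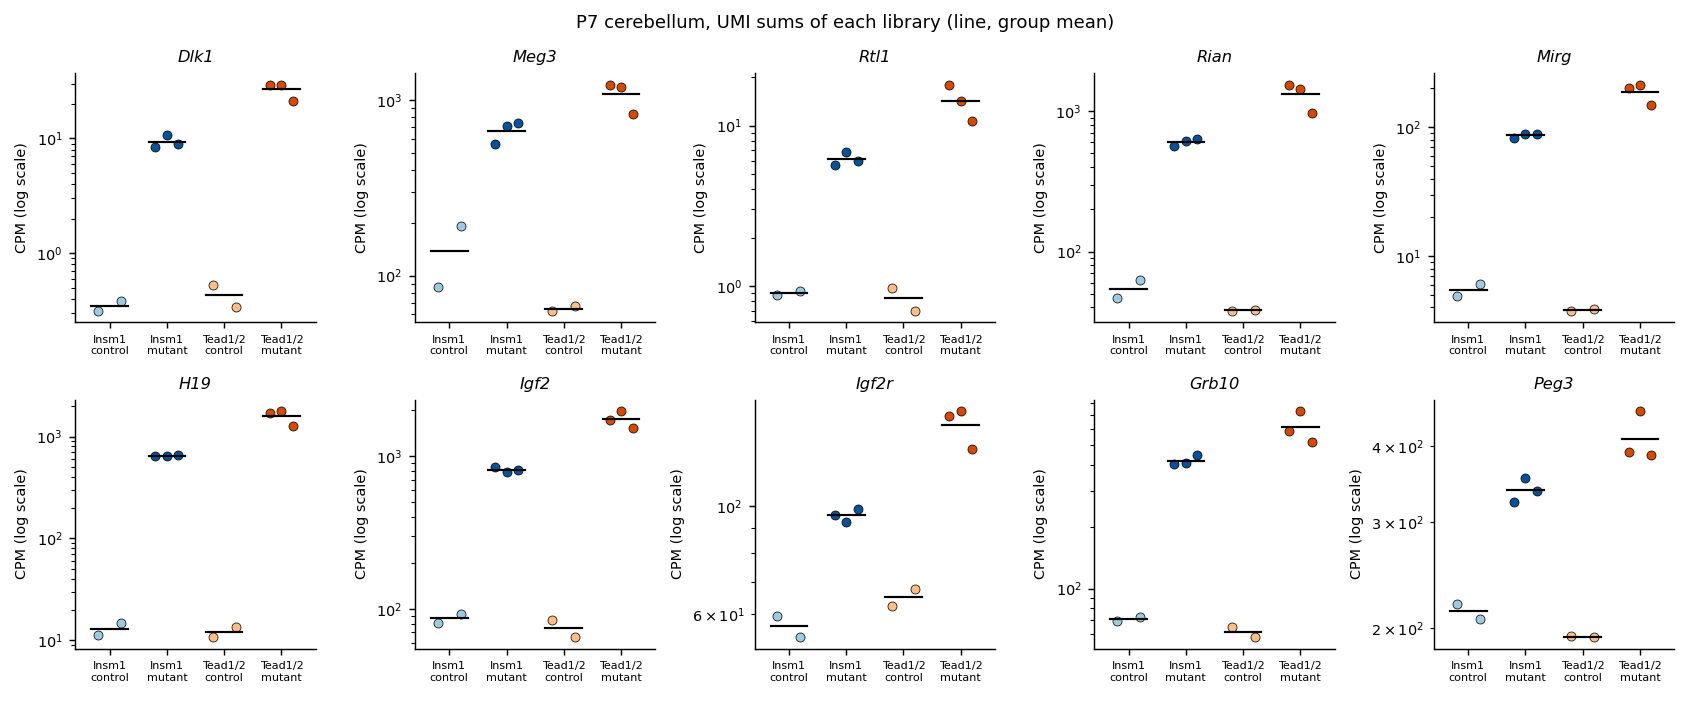
CPM of the 10 members in each P7 library on a log axis, by group, with a point for each library and a line at the group mean. In every panel the mutants of both lines lie above all 4 controls, and for H19 the controls lie between 10.7 and 14.7 CPM and the mutants between 639 and 1790 CPM.

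The size of the rise differed between the lines. Of the 10 members 7 had a larger rise in the Tead1/2 line by the test of the difference, where 3.68% of 24602 genes were called, and 2.17% of the 24602 were called toward Tead1/2. The differences, Insm1 minus Tead1/2, were -1.79 for Meg3 (SE 0.40, edgeR FDR 0.0411), -1.64 for Rian (SE 0.25, edgeR FDR 0.00976) and -1.64 for Mirg (SE 0.21, edgeR FDR 0.00553). For H19 the difference was -1.40 (SE 0.22, edgeR FDR 0.0111), for Igf2 -1.31 (SE 0.18, edgeR FDR 0.00707), for Rtl1 -1.30 (SE 0.31, edgeR FDR 0.0492) and for Grb10 -0.76 (SE 0.17, edgeR FDR 0.0436). Dlk1, Igf2r and Peg3 did not pass (differences -1.18, -0.42 and -0.42, edgeR FDR 0.0607 to 0.0786). The calls of Rian, Mirg, H19 and Igf2 held without any 1 library, and those of Meg3, Rtl1 and Grb10 did not, so that only the former 4 were called without any of Insm1 control 2, Insm1 mutants 1 to 3 and Tead1/2 controls 1 and 2. With the dissection (all lobules or without IX and X) as a block, 5 of 10 differences were called, Rtl1 and Grb10 being lost (edgeR FDR 0.0521 and 0.0558), and all 10 members were called within each line. With every deposited barcode in the sums only Rian, Mirg and Igf2 were called, and the difference of H19 was -0.54 (edgeR FDR 0.35). Both loci overlapped in these differences, -1.79 to -1.18 at Dlk1-Meg3 and -1.40 to -1.31 at H19-Igf2. With the muscle-like clusters left out of the sums, 0 of 10 differences were called (0.156% of 23046 genes) and they ran from -1.12 for Meg3 to -0.11 for Peg3. In named clusters other than muscle-like the count was also 0 of 10 (0.158% of 21574 genes).

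**Figure D3:**
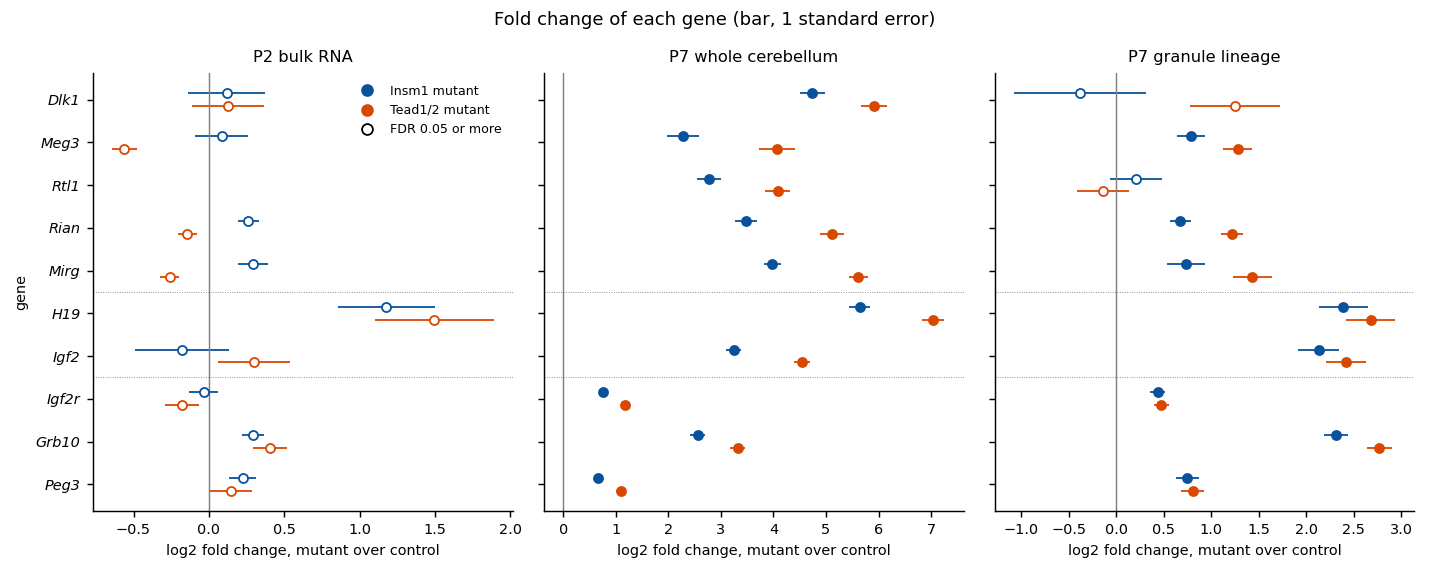
Log2 fold change of mutant over control for each member (points, with bars of 1 standard error) in P2 bulk RNA, in P7 whole-cerebellum sums and in P7 granule lineage sums, for Insm1 mutants (blue) and Tead1/2 mutants (orange). Open points did not pass an FDR of 0.05, and the horizontal scale differs between panels. At P2 only H19 exceeds 1 in both lines, and at P7 all members lie to the right of 0 in the whole-cerebellum sums.

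The cells kept after removal of the barcodes with the highest doublet scores formed 35 clusters, of which 26 could be named from marker genes. The muscle-like class, 7866 cells of which 7 came from controls, had the highest CPM of each of the 10 members among the named classes when the cells of all libraries were pooled. This pool sets muscle-like cells of mutants against other classes of both controls and mutants. Within each of the 6 mutant libraries the muscle-like class was also highest for every member but Meg3, which was higher in Purkinje-like cells in 5 of 6. When the cells with high doublet scores were kept and clustered again this held for 9 of 10, the exception being Meg3, at 1813 CPM in Purkinje-like and 1723 CPM in muscle-like cells. Clusters were made from the expression of all variable genes of these cells, so the levels are a description and were not tested. H19 was at 3776 CPM in muscle-like cells, against 377 CPM in choroid plexus or ependyma-like, 268 CPM in Purkinje-like and 206 CPM in fibroblast-like cells. Igf2 was at 3848 CPM in muscle-like and at 2425 CPM in fibroblast-like cells, and at most 536 CPM in each other named class. Pooled Meg3 was at 2424 CPM in muscle-like and at 2043 CPM in Purkinje-like cells, and at 360 CPM or less elsewhere. By library it was 1901, 2011 and 1870 CPM in muscle-like and 1525, 2519 and 2825 CPM in Purkinje-like cells of the Insm1 mutants, and 3061, 2425 and 2556 CPM against 3894, 2741 and 3388 CPM in the Tead1/2 mutants, where Purkinje-like cells numbered 10, 19 and 13. Rian was at 3020 CPM in muscle-like and at 630 CPM in Purkinje-like cells.

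**Figure D4:**
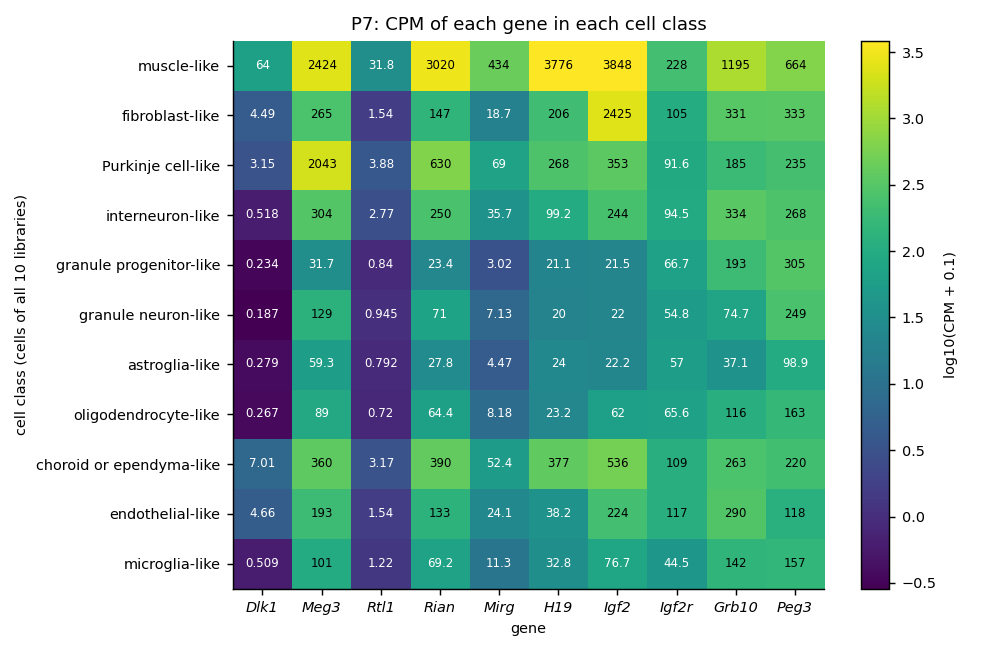
CPM of each member (columns) in each named cell class (rows) over the cells of all 10 P7 libraries, with the colour on a log10 scale and the CPM printed in each cell. In this pool of controls and mutants the muscle-like row holds the highest value of every column, from 31.8 CPM for Rtl1 to 3848 CPM for Igf2, although within 5 of the 6 mutant libraries Meg3 was higher in Purkinje-like cells.

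After each cell was thinned to 2000 UMIs, 57.8% of 7802 muscle-like cells held a UMI of H19 (exact binomial 95% interval 56.7% to 58.9%, counting error only), 70.2% without thinning. In astroglia-like cells, where the gene is not known as a marker, the thinned share was 3.29% (11.3% without thinning). For Meg3 the shares were 84.3% of muscle-like and 95.5% of Purkinje-like cells, against 7.02% of astroglia-like cells, and for Grb10 85.6% of muscle-like cells against 5.23%. Thinning left out 64 muscle-like and 43 astroglia-like cells of lower depth.

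Within the muscle-like class some members varied together and others did not. Over all libraries Meg3, Rian, Mirg and Igf2 were each higher in clusters 16 and 33 than in clusters 22 and 32. Rian, for example, was at 3659 and 3126 CPM in the former and at 887 and 968 CPM in the latter. H19, Dlk1 and Rtl1 were also higher in clusters 16 and 33 than in clusters 22 and 32. H19 and Dlk1 were far higher in cluster 16 than in cluster 33, at 5196 against 1205 CPM and at 91.8 against 2.22 CPM. Grb10 was distributed otherwise. Cluster 16, led by sarcomere genes such as Neb, Myh8 and Mybpc1, had H19 at 4394, 4084 and 4280 CPM in the Insm1 mutants and at 5652, 5111 and 6199 CPM in the Tead1/2 mutants. H19 is among the 10 leading genes of that cluster, so its level there is partly what defines the cluster. Dlk1 in cluster 16 was 63.2 to 71.2 CPM and 91.3 to 112 CPM, and in the other 3 muscle-like clusters it did not exceed 4.36 CPM in any library. Cluster 33, which had 14 of the 15 muscle markers and led with genes such as Rarb and Alk, combined high Meg3 (2757 to 3448 CPM over both lines) and Igf2 (3268 to 4985 CPM) with H19 at 933 to 1345 CPM. Clusters 22 and 32, with Myog, Cdkn1c and Megf10 among their leading genes, had H19 at 235 to 406 CPM and at 62.0 to 223 CPM. Grb10 was highest in clusters 32 and 33, at 1737 to 2530 CPM and 2003 to 2463 CPM, and lower in clusters 16 and 22, at 823 to 1073 CPM and 825 to 1219 CPM. In every mutant library H19 was ordered as cluster 16, 33, 22 and 32, Dlk1 was highest in cluster 16, and Grb10 was higher in clusters 32 and 33 than in 16 and 22.

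Between the lines, all 10 members were higher in muscle-like cells of each Tead1/2 mutant than in those of each Insm1 mutant. The share of all genes that separate in this way in these cells was not counted, so this is not read as a trait of the members. H19 was 2826, 2611 and 2625 CPM in the Insm1 mutants and 4601, 3955 and 4261 CPM in the Tead1/2 mutants. Igf2 ran from 2845 to 3366 CPM and from 3981 to 4407 CPM, and Dlk1 from 38.2 to 42.4 CPM and from 67.8 to 82.0 CPM. The class was composed differently, since cluster 16 made up 252, 297 and 149 of 823, 944 and 562 muscle-like cells in the Insm1 mutants and 762, 1152 and 632 of 1504, 2557 and 1469 in the Tead1/2 mutants. The part of this make-up in the difference was not tested. The cluster 16 levels of H19 and Dlk1 given above did not overlap between the lines. In cluster 33 Igf2 overlapped, at 4222 to 4985 CPM and 3268 to 4402 CPM.

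**Figure D5:**
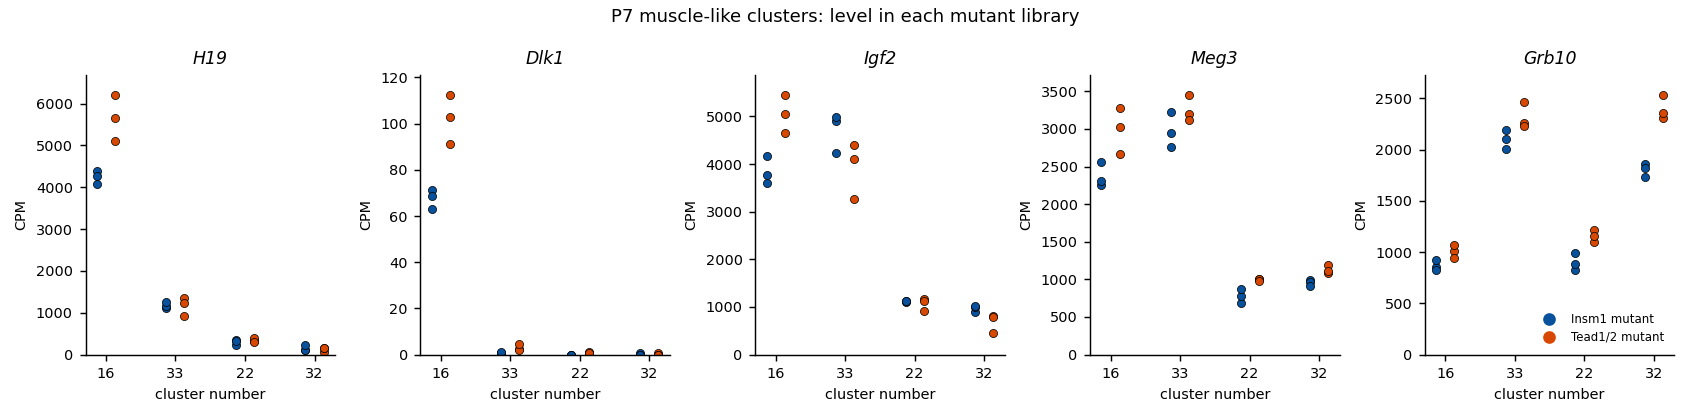
CPM of 5 members in the 4 muscle-like clusters (horizontal axis, by cluster number) in each Insm1 mutant (blue) and Tead1/2 mutant (orange) library at P7. H19 and Dlk1 are highest in cluster 16, Igf2 and Meg3 are high in clusters 16 and 33, and Grb10 is high in clusters 33 and 32.

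Most H19 molecules of the mutants came from muscle-like cells and 1 unnamed cluster. Muscle-like cells held 46.5% to 59.3% of the H19 UMIs of an Insm1 mutant and 67.9% to 78.1% of those of a Tead1/2 mutant, while they held 11.8% to 15.6% and 24.5% to 32.7% of the UMIs of all genes. Unnamed cluster 2, whose leading genes mix muscle (Myh3, Neb, Ttn) with glia (Gfap, Aqp4) and include H19, had a median of 51718 UMIs per cell and held a further 32.4% to 46.0% and 18.8% to 28.6% of the H19 UMIs, beside 26.1% to 33.7% and 11.2% to 27.2% of those of all genes. Peg3 had 19.3% to 25.01% in muscle-like cells and 25.9% to 35.2% in cluster 2 of the Insm1 mutants, and 43.4% to 54.2% and 11.6% to 27.1% in the Tead1/2 mutants. For Meg3 the muscle-like share was 30.9% to 42.7% in Insm1 mutants, where Purkinje-like cells held another 14.5% to 25.7%, and 63.2% to 74.2% in Tead1/2 mutants, where Purkinje-like cells held 2.05% to 2.29%. In Insm1 controls Purkinje-like cells held 20.7% and 65.3% of Meg3, and fibroblast-like cells held 71.5% and 50.7% of Igf2. Fibroblast-like cells held 72.4% to 79.5% of Igf2 in the Tead1/2 controls.

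When the muscle-like clusters were left out of the sums, all 10 members were still called higher in both lines (30.1% and 43.6% of 23046 genes in either direction, 16.7% and 24.6% higher). The sums then still held cluster 2 and other unnamed clusters with muscle markers. With only named clusters other than muscle-like, a setting chosen after seeing the data, 20.1% of 21574 genes were called for Insm1 and 36.0% for Tead1/2 (11.8% and 20.7% of the tested genes were higher). H19 then stood at 15.3 CPM in Insm1 controls and at 103 CPM in Insm1 mutants (log2 change 2.76, SE 0.33, edgeR FDR 5.77e-04), and at 14.2 against 114 CPM in the Tead1/2 line (log2 change 3.01, SE 0.34, edgeR FDR 2.54e-04). In these sums all 15 muscle markers were also higher in every mutant than in every control of the same line. Myh3 went from 9.24 and 9.14 CPM to 112, 125 and 133 CPM in the Insm1 line and from 9.95 and 13.5 CPM to 137, 301 and 125 CPM in the Tead1/2 line, and Ttn from 36.7 to 50.5 CPM over the 4 controls to 665 to 1944 CPM over the 6 mutants. Their part in the changes of the members was not tested. In that setting 8 of 10 members were called for Insm1, where Meg3 (log2 change 1.16, edgeR FDR 0.0883) and Rtl1 (0.94, edgeR FDR 0.0754) were not, and 10 of 10 for Tead1/2.

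The granule lineage, in which Atoh1Cre acts, was compared through the sums of its progenitor-like and neuron-like clusters. Of the 10 members 8 rose in each line, all but Dlk1 and Rtl1, where 20.8% of 16839 genes were called for Insm1 (12.5% higher) and 22.5% for Tead1/2 (13.1% higher). The median log2 change of the members was 0.74 and 1.27, and that of all genes was under 0.01. Pooled over libraries, different clusters held most of these cells in controls (6, 7, 11, 12 and 18) and in mutants (8, 10 and 13). Tead1/2 mutant 1 did not show this split, with 480 cells in cluster 11 and 330 in cluster 12 beside 691 in cluster 13. In clusters present in all 10 libraries only, 5 members were called for Insm1 (4.07% of 13828 genes) and 6 for Tead1/2 (7.24%), the change of Igf2r turned to -0.042 and -0.059, and that of Grb10 shrank to 0.93 and 1.09.

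Grb10 had, with H19, the largest change of the set in the granule lineage. The Insm1 line had 64.3 and 63.5 CPM in controls and 283, 309 and 363 CPM in mutants (log2 change 2.31, SE 0.13, edgeR FDR 3.44e-07). For Tead1/2 the levels were 55.2 and 50.4 CPM against 305, 404 and 371 CPM (log2 change 2.77, SE 0.13, edgeR FDR 8.76e-08). In astroglia-like cells of the same libraries it was 21.7 to 25.4 CPM in controls and 32.4 to 57.7 CPM in mutants, and in oligodendrocyte-like cells 42.9 to 57.6 CPM and 89.7 to 244 CPM. The progenitor-like part of the lineage lay above both, at 60.6 to 78.6 CPM in controls and 407 to 546 CPM in mutants. Interneuron-like cells, which are not of this lineage, went from 18.04 to 34.98 CPM in controls to 274 to 546 CPM in mutants. In these class sums a rise of this size was thus not particular to the granule lineage. The interneuron-like class joins cluster 5, with Grb10 at 461 CPM over all libraries, and cluster 15, at 21.1 CPM. Cluster 5 held 13 to 23 cells in each control library and 180 to 485 in each mutant library. The part of this make-up in the rise was not tested. Peg3 rose from 241 and 242 CPM to 369, 428 and 419 CPM in the Insm1 line (log2 change 0.75, SE 0.12, edgeR FDR 7.64e-04), and its astroglia-like level was 83.5 to 95.1 CPM in controls and 90.4 to 114 CPM in mutants. In oligodendrocyte-like cells of the same libraries Peg3 was at 135 to 175 CPM in controls and 97.2 to 214 CPM in mutants. It was at 84.8 to 170 CPM and 7.47 to 250.1 CPM in microglia-like cells, and at 94.1 to 111 CPM and 191 to 361 CPM in interneuron-like cells. All of these control levels lay below those of the granule lineage of the Insm1 controls, and all of these mutant levels below those of the Insm1 mutants. Over all libraries, however, Peg3 was at 333 CPM in fibroblast-like cells and at 548 to 830 CPM in the muscle-like clusters. Interneuron-like levels were also higher in mutants than in controls. A high level or a rise of Peg3 was thus not particular to the granule lineage.

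H19 and Igf2 rose in the granule lineage to levels that other classes of the same libraries also had. H19 was 6.54 to 9.67 CPM in the 4 controls, 33.8, 34.1 and 46.6 CPM in the Insm1 mutants and 37.2, 69.2 and 48.1 CPM in the Tead1/2 mutants (log2 changes 2.39 and 2.68, SE 0.26 each, edgeR FDR 4.12e-05 and 1.45e-05). In microglia-like cells H19 was 4.29 to 20.6 CPM in controls and 30.2 to 76.1 CPM in mutants, and in oligodendrocyte-like cells 5.04 to 6.72 CPM and 26.1 to 67.0 CPM. The granule lineage levels of H19 in mutants lay within the microglia-like range, and whether they are expression in granule cells was not tested. Igf2 was 8.85 to 9.62 CPM in the 4 controls and 32.7 to 62.3 CPM in the mutants (log2 changes 2.13 and 2.42), beside 5.29 to 32.9 CPM and 29.9 to 192 CPM in microglia-like cells. The 15 muscle markers summed to 59.4 to 78.4 CPM in the granule lineage of controls, to 182 to 247 CPM in Insm1 mutants and to 317 to 904 CPM in Tead1/2 mutants, and their part in these changes was not tested.

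Meg3 stood at 53.4 and 52.3 CPM in the granule lineage of Insm1 controls and at 99.4, 84.9 and 89.1 CPM in that of Insm1 mutants (log2 change 0.79, SE 0.15, edgeR FDR 0.00244). For Tead1/2 it went from 32.5 and 40.8 CPM to 111, 78.0 and 77.8 CPM (log2 change 1.28, SE 0.15, edgeR FDR 7.04e-05). By class, neuron-like clusters held more Meg3 than progenitor-like ones in every library, 80.3 to 109 CPM against 17.9 to 34.4 CPM in controls. Rian and Mirg rose with it by log2 values of 0.67 and 0.73 in the Insm1 line and of 1.22 and 1.43 in the Tead1/2 line. Other classes of the same libraries held Meg3 at similar levels, 42.6 to 60.4 CPM in oligodendrocyte-like cells of controls and 68.4 to 176 CPM in those of mutants. Microglia-like cells held Rian at 19.1 to 33.9 CPM in controls and 22.4 to 155 CPM in mutants, and Mirg at 0.764 to 3.14 CPM and 5.34 to 25.9 CPM. The microglia-like class joins cluster 24, with Rian at 98.5 CPM over all libraries, and clusters 25 and 26, at 12.5 and 20.7 CPM. Whether the rises of Meg3, Rian and Mirg are changes of granule cells was not tested. Dlk1 stayed at or under 0.75 CPM in the granule lineage of every library.

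Purkinje-like cells of the Insm1 line held Meg3 at 1534 and 1436 CPM in controls and at 1525, 2519 and 2825 CPM in mutants, where H19 went from 4.66 and 8.76 CPM to 399, 370 and 288 CPM. The Tead1/2 libraries had 6 to 19 such cells each and are not compared. Fibroblast-like cells of the Insm1 line held Igf2 at 1675 and 1421 CPM in controls and at 3290, 2494 and 2181 CPM in mutants. They held it at 1582 and 1903 CPM in the Tead1/2 controls and at 3843, 3271 and 3385 CPM in the Tead1/2 mutants. H19 in these cells was 126 and 165 CPM in the Insm1 controls against 175, 353 and 177 CPM in the mutants, while the Tead1/2 line had 102 and 201 CPM without the deletion and 213, 299 and 279 CPM with it. Within a line every mutant lay above every control for both genes, and over both lines H19 overlapped. No test was made of these class levels.

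Neighbours of the loci were read from lists. Beside H19 and Igf2 lie Tnni2 and Tnnt3, which encode fast skeletal muscle troponins. At P2, 2 of 7 tested neighbours rose in Insm1 mutants, beside 0.689% of all genes called. Tnni2 went from a mean of 0.179 to 1.58 CPM (log2 change 3.13, SE 0.50, edgeR FDR 0.0204) and Tnnt3 from 0.653 to 2.09 CPM (log2 change 1.67, SE 0.21, edgeR FDR 0.0063). The same pair rose in Tead1/2 mutants without the library labelled mutant 4 (log2 changes 2.31 and 1.21), where 3.19% of all genes were called, and 0 of 7 were called with it. At P7, 6 of 11 rose and 1 fell in Insm1 mutants, and 7 of 11 rose in Tead1/2 mutants. The shares over all genes, which also stand beside the lists that follow, were 18.6% higher and 15.4% lower for Insm1 and 25.9% and 22.7% for Tead1/2. Tnnt3 went from 1.24 to 73.5 CPM and from 1.04 to 235 CPM (log2 changes 5.89 and 7.82), and Igf2os, antisense to Igf2, from 0.442 to 9.15 CPM and from 0.461 to 21.4 CPM. Of the neighbours of the Dlk1-Meg3 locus 0 of 6 were called at P2 in either line, with or without the library labelled Tead1/2 mutant 4, and 0 had an unadjusted p under 0.05 (edgeR). At P7, 1 of 7 rose and 2 fell in the Insm1 line, and 1 of 7 rose and 3 fell in the Tead1/2 line. The one that rose was Begain, a postsynaptic protein gene upstream of Dlk1, from 4.32 to 7.86 CPM and from 4.16 to 9.65 CPM (log2 changes 0.86 and 1.21).

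Among 40 other imprinted genes, 2 of 37 tested rose in Insm1 mutants at P2, beside 0.689% of all genes called. Cdkn1c, a cell cycle inhibitor that is expressed from the maternal copy, went from 89.8 ± 11.7 to 155 ± 14.4 CPM (SD, n = 4 and 4, log2 change 0.79, SE 0.10, edgeR FDR 0.00733), and Mest, a paternally expressed gene, from 74.8 ± 6.61 to 112 ± 10.98 CPM (log2 change 0.58, edgeR FDR 0.018). Without the library labelled Tead1/2 mutant 4, Cdkn1c and Mest rose (log2 changes 0.99 and 0.86), and Kcnk9, a potassium channel gene, and its neighbour Peg13 fell in Tead1/2 mutants (log2 changes -0.70 and -0.30, edgeR FDR 4.14e-04 and 0.0265), beside 3.19% of all genes called. With that library 0 of 37 were called, and 10 had an unadjusted p under 0.05 (edgeR). At P7, 15 of 35 rose and 5 fell in Insm1 mutants, and 17 rose and 6 fell in Tead1/2 mutants, with medians of 0.29 and 0.32. These counts stand beside the shares over all genes given above. Cdkn1c changed most, from 9.98 to 226 CPM and from 6.71 to 327 CPM (log2 changes 4.499 and 5.60). Zdbf2 and Zim1 rose as well, by log2 values of 2.90 and 2.04 in the Insm1 line and of 4.25 and 3.84 in the Tead1/2 line. Ddc, which encodes the decarboxylase that makes dopamine and lies next to Grb10, rose by 4.03 and 4.79 on the log2 scale.

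Of 26 genes of the insulin-like growth factor pathway, 0 of 24 tested were called in the Insm1 line at P2 (edgeR, 5 with an unadjusted p under 0.05), beside 0.689% of all genes. Without the library labelled Tead1/2 mutant 4 the share of all genes was 3.19%, and both shares hold for the Notch list as well. For Tead1/2, 1 was called without the library labelled mutant 4, Stc2, an inhibitor of the protease that frees IGFs from their binding proteins (log2 change 1.10, edgeR FDR 0.00124), and 0 with it (Stc2 0.96, edgeR FDR 0.0898). At P7, 10 of 26 rose and 3 fell in Insm1 mutants, and 12 rose and 4 fell in Tead1/2 mutants, beside the same shares over all genes. Stc2 went from 2.04 to 11.3 CPM and from 0.853 to 14.7 CPM (log2 changes 2.46 and 4.12), and the binding protein Igfbp3 from 1.46 to 3.197 CPM and from 1.37 to 7.39 CPM. Of 12 genes of the Notch pathway, to which Dlk1 relates by structure, 1 rose at P2 in the Insm1 line, the ligand Jag1, from 17.2 to 29.96 CPM (log2 change 0.80, SE 0.11, edgeR FDR 0.0103). Jag1 also rose and the target Hey1 fell in Tead1/2 mutants without the library labelled mutant 4 (log2 changes 0.44 and -0.99, edgeR FDR 0.00509 and 7.71e-04). With that library neither was called (log2 changes 0.32 and -0.70, edgeR FDR 0.193 and 0.139). At P7, 9 of 12 rose and 1 fell in Insm1 mutants, and 7 rose and 1 fell in Tead1/2 mutants, beside the shares over all genes given above. The ligands Dll1, Jag1 and Jag2 rose by log2 values of 2.53, 1.77 and 2.33 in the Insm1 line and of 2.47, 2.06 and 3.10 in the Tead1/2 line. Hey1 fell in both, from 20.2 to 8.60 CPM and from 20.2 to 4.999 CPM (log2 changes -1.23 and -2.01).

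The genes most like H19 and Meg3 across the 35 P7 clusters were found by Pearson's r of log2(CPM + 1) among 13130 genes with at least 20 CPM in a cluster. Those for H19 included Myh3 (r = 0.967), Ttn (0.959), Myom2 (0.941) and Pkhd1 (0.93), of which the first 3 encode sarcomere proteins. For Meg3 they were Rian (0.979), B830012L14Rik (0.946), Mirg (0.916), Gm37899 (0.912) and Alpk2 (0.89). Among the members, H19 was most like Igf2 (0.922) and least like Peg3 (0.422), and its r with Meg3 was 0.799. These values describe 35 clusters that share libraries and differ in depth, and carry no test.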

How the data were processed

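The P2 tables, as deposited, give each gene's expected count from RSEM for total RNA. RSEM 1.3.3, STAR 2.7.9a and the build GRCm38.p6 are named in the submitters' processing notes. For P7, the authors deposited UMI counts per gene and barcode from Parse split-pool libraries, per the labels. The P7 gene table names GRCm39. No coordinates were converted, and ATAC-seq and CUT&RUN samples were not analysed here.

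Expected counts were rounded, 92 spike-in entries were left out, and edgeR 4.0.16 (TMM, filterByExpr, quasi-likelihood test) was fitted to each line, with a fit of all 15 libraries for the difference. At P7, 79838 barcodes passed minima of 1000 UMIs and 500 genes with a mitochondrial share below 15%. Their counts were summed per library, and edgeR was fitted over 10 libraries in 4 groups. CPM values of the fits are scaled by TMM, and those of classes and clusters are plain. For clustering, Scrublet's automatic threshold marked 0.0% to 55.3% of barcodes per library, so the barcodes with the highest 5% of scores were removed instead, ties included (4983). The other 74855 cells were clustered with scanpy 1.11.5 (2000 variable genes, 30 components, 15 neighbours, Leiden resolution 1). A cluster was named where at least 3 markers of a fixed list exceeded 1.5 times the mean over clusters in over 10% of its cells and no second lineage came near, the last part set after seeing the data. The named clusters rest on these rebuilt names. Granule lineage sums use kept cells.

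The members and gene lists were chosen with earlier results of these data known. Genes named from a list are among the 5 of largest change of those called in it. Of the genes most like a member, 1 is not reported here. Each library is 1 animal, and the scripts were tested on simulated data. Alternatives were DESeq2 1.42.0, no low-count filter, a sex term (P2), the replicate number as a block, each library left out, doublets removed, every deposited barcode, and sums without muscle-like clusters. Confidence intervals are exact binomial.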

Additional observations from a re-analysis of the deposited data

Results flagged for a closer look

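In the Insm1 controls at P2, Igf2r of control 2 (61.9 CPM) lay apart from the other libraries, its gap to the nearest covering 0.851 of the range of the group. In the Insm1 mutants, Igf2 of mutant 2 (99.5 CPM) lay apart in the same way, with a gap of 0.869 of the range. The 9 fibroblast markers summed to 177 CPM in that library, against 109, 78.3 and 79.1 CPM in the other Insm1 mutants, and their part in the level of Igf2 was not tested. Of 30 groups tested these were the only 2, and chance alone sets about 1 in 20 groups apart by this measure.

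At P7 the rise in mutants differed between the lines by the test of the difference (edgeR, Insm1 minus Tead1/2, log2) for Meg3 (-1.79), Rian (-1.64), Mirg (-1.64), Rtl1 (-1.30), H19 (-1.40), Igf2 (-1.31) and Grb10 (-0.76), each with the smaller rise in Insm1 mutants. The sum of the 15 muscle markers was also lower in Insm1 mutants (5559 to 6528 CPM) than in Tead1/2 mutants (12523 to 19900 CPM).

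Barcodes that failed the cell filters entered no comparison other than the alternative with every deposited barcode. In them each member was higher in every mutant library than in every control library. How many of all genes separate in the same way there was not counted, so this is not read as a result about the members. The lowest mutant and the highest control stood at 508 and 230 CPM for Meg3, at 524 and 230 CPM for Rian, at 90.6 and 34.6 CPM for Mirg and at 8.90 and 8.24 CPM for Rtl1. They stood at 8.40 and 3.65 CPM for Dlk1, at 817 and 459 CPM for H19 and at 717 and 267 CPM for Igf2. For Igf2r they were 104 and 84.6 CPM, for Grb10 357 and 161 CPM, and for Peg3 366 and 282 CPM.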

How the results depend on the processing

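At P7 all 10 members were called in both lines under every alternative to the whole-cerebellum sums except that restricted to named clusters other than muscle-like, where Insm1 kept 8. At P2 the calls depended on the fit. For Insm1 the 0 members called became 2 with DESeq2, 1 without the low-count filter, 1 with the replicate block (H19, edgeR FDR 0.02) and 0 to 1 with each library left out. For Tead1/2 the 0 became 3 with DESeq2, 3 without the filter, 2 with the replicate block, 3 with DESeq2 and without the library labelled mutant 4, and 0 to 3 with each library left out. Without Tead1/2 control 3, Meg3 alone was called. The cause was not tested. At P2 the deviations of same-numbered libraries correlated at 0.36 for the Insm1 libraries numbered 4 and at -0.24 to -0.01 for all other numbers. At P7 they correlated at -0.16 to -0.03. A positive correlation was thus seen only for the Insm1 libraries numbered 4. At P7 number 1 marks the dissection with all lobules. The 7 members with a difference between lines at P7 became 3 with every deposited barcode, 0 without muscle-like clusters, 0 in named clusters other than muscle-like and 4 to 10 with each library left out. These libraries are named beside the differences. The 8 granule lineage members called for Insm1 became 5 in clusters shared by all libraries.

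The following directions turned. With a sex term the P2 Insm1 change was -0.014 for Meg3 and 0.11 for Igf2. The P2 difference of Dlk1 was 0.073 with the replicate block. Peg3 at P7 had a difference of 0.050 in named clusters other than muscle-like, and Igf2r in shared granule clusters changed by -0.042 (Insm1) and -0.059 (Tead1/2). With libraries left out, the P2 Insm1 change ran from -0.045 to 0.32 for Dlk1, from -0.50 to 0.13 for Igf2, from -0.088 to 0.038 for Igf2r and from -0.015 to 0.24 for Meg3, and that of Dlk1 for Tead1/2 from -0.071 to 0.29. The P2 difference ran from -0.18 to 0.19 for Dlk1, from -0.58 to 0.11 for H19 and from -0.033 to 0.19 for Peg3, and the granule change from -0.63 to 0.043 for Dlk1 (Insm1) and from -0.36 to 0.15 for Rtl1 (Tead1/2). Dlk1 and Rtl1 are limited by depth at P2, with at most 144 and 12 counts in a library.

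Counts over all genes moved too. At P2 the 135 genes called for Insm1 became 314 with DESeq2, 212 without the filter, 64 with the replicate block, 88 with a sex term and 64 to 132 with each library left out. The 0 for Tead1/2 became 1026, 1287, 236 and 3 in the same order, 4 in a fit of all 15 libraries, 1198 with DESeq2 and without the library labelled mutant 4, and 0 to 646. The 0 for the difference became 14, 11 without the filter, and 0 to 8. At P7 the named clusters took 8346 to 4332 for Insm1, 11951 to 7771 for Tead1/2 and 906 to 34 for the difference, which was 2022 with DESeq2, 36 without muscle-like clusters and 195 to 1187 with libraries left out. Shared granule clusters took 3508 to 563 and 3783 to 1001, and left-out libraries gave 2262 to 3329 and 2422 to 4260.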
